A study of Mus musculus with 4 samples.

Results

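Transforming growth factor beta (TGF-beta) activation and signalling was followed through 8 genes picked by symbol out of the 31053 genes of the deposited tables: the ligand gene Tgfb1, the activation and docking genes Itgb8, Itgav and Lrrc32, the receptor genes Tgfbr1 and Tgfbr2, and the feedback genes Smad7 and Skil. All 8 symbols were found in each of the 4 tables. The study sorted cells labelled innate lymphoid cells (CD45+, lineage negative, CD90+ and CD127+) from subcutaneous TC-1 tumours, which grow from a mouse lung epithelial line transformed with papillomavirus oncogenes. Hosts were wild-type mice of the C57/bl6 strain, and treatment began when tumours reached 40 mm². The first library holds cells of PBS-treated tumours, and the others hold cells taken 1, 3 and 7 days after a single intraperitoneal dose of cisplatin at 6 mg/kg, a platinum drug that crosslinks DNA. The labels give no collection day for the PBS library and no number or age of mice per library, so each group is 1 library and no spread between animals could be measured.

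TGF-beta is made as a precursor that stays folded inside its own propeptide, the latent form, and cannot reach its receptor until it is activated. Lrrc32 encodes GARP, which holds latent TGF-beta on the surface of regulatory T cells. Itgav and Itgb8 encode the alpha v and beta 8 chains of an integrin that binds and activates latent TGF-beta. The ligand then binds a receptor pair encoded by Tgfbr2 and Tgfbr1, SMAD proteins carry the signal to the nucleus, and Smad7 and Skil, both induced by the signal, act as brakes on it. In tumours the pathway is known for restraining cytotoxic lymphocytes and for shaping macrophages and matrix.

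The tables hold raw UMI counts, with 59915831, 82493626, 36587207 and 16153484 UMIs in PBS and on days 1, 3 and 7. After a filter on genes detected and mitochondrial share, 8075, 7484, 4964 and 2771 cells were kept, with median depths of 9120 UMIs on day 1 and between 5120 and 6343 in the other libraries. Library pairs shared between 4 and 32 barcodes. The cells went against the sort label: gates on marker UMIs placed 7341, 5637, 3531 and 2048 cells as macrophages, which is 79.7% of all kept cells, and 55, 129, 118 and 31 cells as regulatory T cells (Treg, defined by Cd3 and Foxp3 UMIs). The other classes were smaller, at 70 CD8 T cells, 103 gamma-delta T cells, 514 other T cells, 137 group 1 innate lymphoid cells (NK cells and ILC1) and 178 dendritic cells over the 4 libraries. The dendritic gate rests on Fscn1, Ccr7 and Ccl22, so dendritic cells low in these transcripts are not covered by it. Cells passing more than 1 lineage gate, at 207, 938, 577 and 140, were set aside as mixed, since they may be doublets. Markers not used for gating followed the names in the sums tested, with 1 exception: the 10 dendritic-gated cells of day 7 had a median of 17106.5 UMIs and 131 CPM (UMIs scaled to a common total per sum) of the check markers, against 1615 to 1702 CPM in the other libraries.

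For Tgfbr1 and Itgav, the members that were higher in macrophages than in lymphoid cells, the 250 bases before the first start site are shown. They come from RefSeq (GRCm38.p6), which gave a promoter for 5 of the 8 members, at chr4:47352972-47353221 and chr2:83724147-83724396, both on the plus strand. Capitals mark the GC box, GGGCGG, searched on both strands.
Tgfbr1: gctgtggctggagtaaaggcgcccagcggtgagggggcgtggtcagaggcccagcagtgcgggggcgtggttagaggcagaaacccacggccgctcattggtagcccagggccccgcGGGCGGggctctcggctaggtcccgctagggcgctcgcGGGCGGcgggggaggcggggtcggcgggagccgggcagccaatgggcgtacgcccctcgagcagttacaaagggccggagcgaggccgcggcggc
Itgav: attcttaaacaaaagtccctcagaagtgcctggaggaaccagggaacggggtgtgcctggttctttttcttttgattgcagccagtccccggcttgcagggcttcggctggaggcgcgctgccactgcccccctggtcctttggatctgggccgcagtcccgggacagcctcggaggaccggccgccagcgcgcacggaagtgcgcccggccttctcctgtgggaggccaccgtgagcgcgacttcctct
The Tgfbr1 stretch held the GC box at 2 places that do not overlap, and the Itgav stretch held none, while 32.7% of 32851 promoters of that length have at least 1. Neither stretch held the SMAD box CAGAC, present in 42.2% of promoters, or the AP-1 motif TGANTCA, present in 6.75%. A second Tgfbr1 start site in RefSeq, with its stretch at chr4:47385966-47386215, held 1 SMAD box and no GC box. These counts describe the letters only.

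Itgb8 marked the Treg gate. The gene (chr12:119158022-119238802, minus strand, mm10) stood at 109, 242, 180 and 82.7 CPM in Treg sums in PBS and on days 1, 3 and 7, a mean of 153 ± 72.0 CPM (SD, n = 4 libraries). Macrophage sums held 0.375, 1.22, 0.390 and 0.247 CPM. The lowest Treg library was therefore far above the highest macrophage library. No UMI of Itgb8 was found in the CD8 T, gamma-delta T and group 1 innate lymphoid cell gates together, which hold 310 cells and 1149713 UMIs.

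Against that zero, the 215 Itgb8 UMIs of 333 Treg cells, or 191 CPM, make Treg at least 73.2-fold higher, with the floor set at 3 counts over the joined classes. Among the fitted sums Itgb8 passed the count filter through the Treg sums alone, so its fitted test is not given as support. In the edgeR quasi-likelihood test over class sums, with library as a term, Itgav and Itgb8 were the 2 of 7 tested members called higher in Treg than in the other lymphoid classes, and none was called lower; over all 4190 genes tested, 16.6% were called, 9.33% higher and 7.28% lower. Against macrophages, a contrast added after the data were seen, 3 members were called higher, Itgb8 among them with the same limit, and 1 lower of 7 tested, beside 44.2% of all genes called, 21.9% higher and 22.3% lower. The others were Itgav and Smad7, higher by 1.31 and 1.91, and Tgfbr1, at -1.13 (adjusted p 0.00302).

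The other T cells, which passed the Cd3 gate and none of the 3 named T cell gates, had 62.1 ± 24.6 CPM of Itgb8 (SD, n = 4 libraries), with 86.3 CPM on day 1 as the highest and 38.6 CPM on day 3 as the lowest. Their range and that of the Treg gate met, since Treg cells of day 7 stood at 82.7 CPM.

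Itgav followed the same order among lymphoid cells but was not confined to them. The gene (chr2:83724397-83806916, plus strand) stood at 326, 512, 460 and 238 CPM in Treg sums in PBS and on days 1, 3 and 7, a mean of 384 ± 125 CPM (SD, n = 4). CD8 T, gamma-delta T and group 1 innate lymphoid cells averaged 38.5, 40.2 and 47.4 CPM, and their highest single sum, 76.4 CPM, lay well under the lowest Treg sum. Treg exceeded the other lymphoid classes by 3.05 on the log2 scale (SE 0.26, adjusted p 2.41e-08 by edgeR). Macrophages held an intermediate level of 136 ± 35.8 CPM (SD, n = 4), and Treg exceeded them by 1.31 (SE 0.24, adjusted p 1.12e-04). The other T cells, at 221 ± 102 CPM, lay between the macrophage and Treg means and overlapped both.

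Lrrc32 had few UMIs, and its highest class mean was in Treg. The gene (chr7:98489283-98502181, plus strand) stood at 38.8, 36.0, 80.0 and 51.7 CPM in Treg sums in PBS and on days 1, 3 and 7, from 5, 18, 32 and 5 UMIs. Macrophage sums held 0.169, 1.16, 1.17 and 0.165 CPM, and CD8 T, gamma-delta T, group 1 innate lymphoid and dendritic cells held none. With 60 UMIs in Treg cells and 0 in the 3 other lymphoid classes, Treg was at least 20.4-fold higher on the same floor. Lrrc32 fell below the count filter of the fit, so it has no test. It was not confined to Treg: ungated, other T and stromal cells averaged 18.5, 15.6 and 14.0 CPM.

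**Figure D1:**
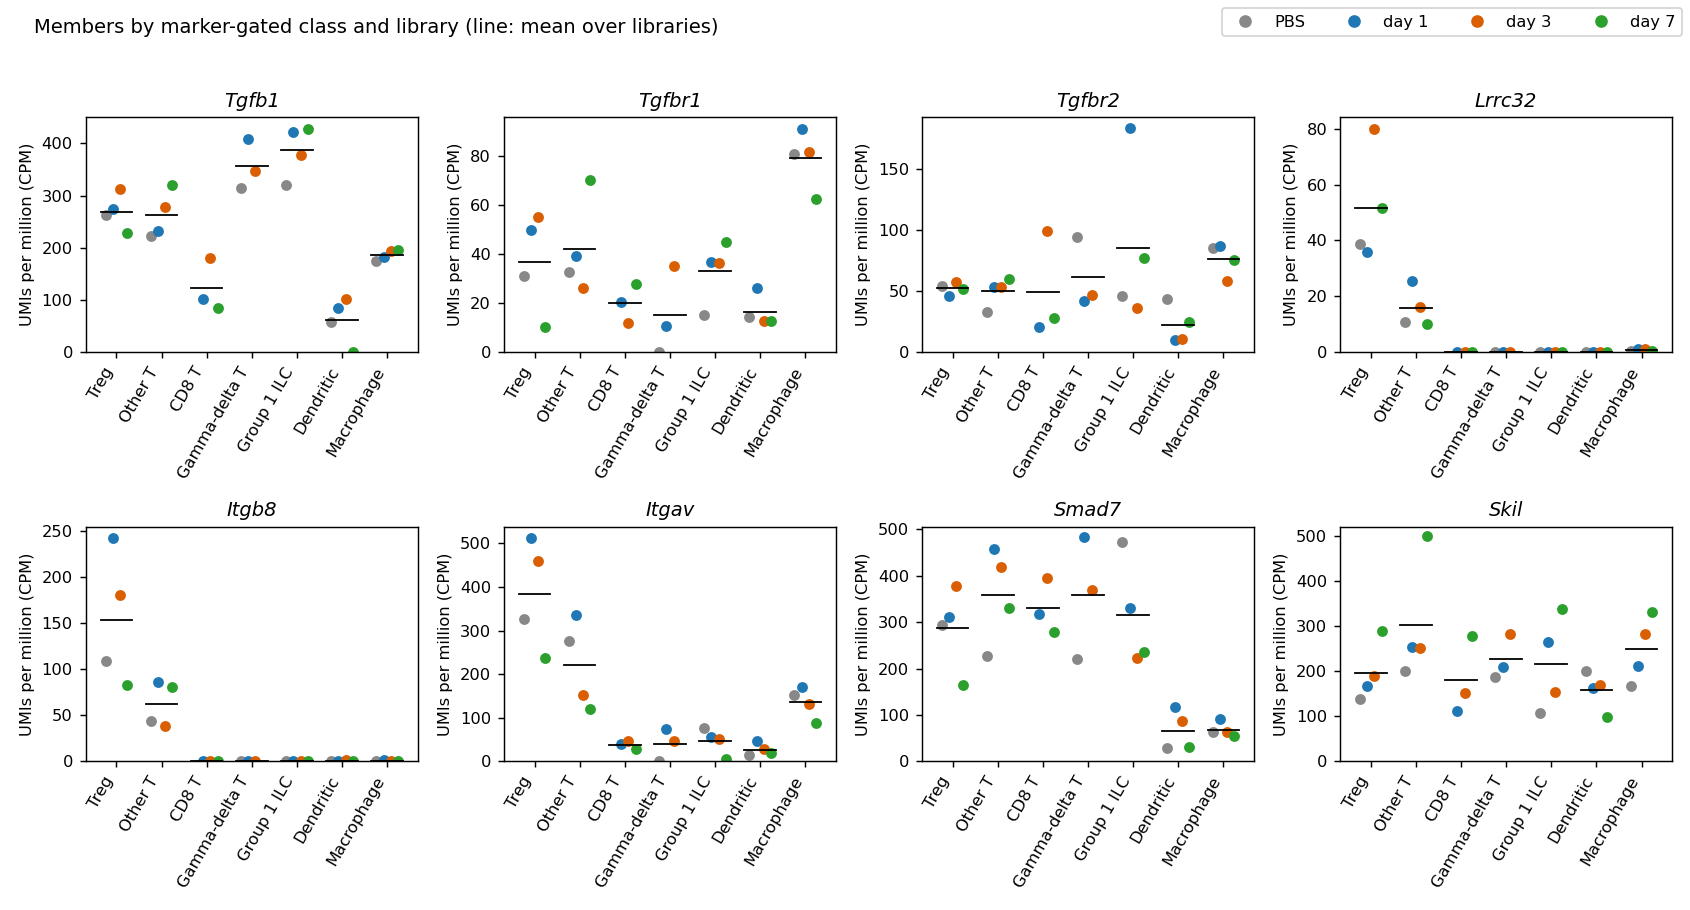
Level of each member in CPM (linear axes that differ between panels) by marker-gated class, with 1 point per library that holds at least 10 cells of the class and a line at the mean. Itgb8 and Lrrc32 lie at 0 in CD8 T, gamma-delta T and group 1 innate lymphoid cells, and the Treg points of Itgav, from 238 to 512 CPM, lie above every macrophage and non-Treg lymphoid point except those of the other T cells.

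In single Treg cells, Itgb8 was detected in 124 of 333 cells (37.2%), Itgav in 226 (67.9%) and Lrrc32 in 51 (15.3%). Both integrin chains were found together in 93 cells, so that 75.0% of the Itgb8-positive Treg cells also held Itgav, and 67 cells held none of the 3 transcripts. Cells differ in depth, so each was also thinned to 2000 UMIs, which left 261 Treg cells and took out 72 shallower ones. At that depth 28.7% of Treg cells (exact 95% binomial interval 23.3 to 34.6%) held Itgb8, against 0.106% of 5648 macrophages (0.0390 to 0.231%). For Lrrc32 the shares were 9.20% and 0.142%, and for Itgav 57.1% and 23.0%. The part of free RNA in these shares was not tested. Before thinning, the same macrophages plus 352 shallower ones gave 0.367% for Itgb8, 0.483% for Lrrc32 and 52.0% for Itgav. Median depths before thinning ran from 2033 to 3496 UMIs in Treg and from 5604 to 9460 UMIs in macrophages. All intervals cover counting error only.

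Where the transcripts lie in the whole sort differed between members. Treg-gated cells are 1.43% of kept cells and 0.613% of their UMIs, yet they held 26.3% of the 818 Itgb8 UMIs and 13.9% of the 432 Lrrc32 UMIs. Macrophage-gated cells held 12.7% of the Itgb8 UMIs and 25.2% of the Lrrc32 UMIs. For Tgfb1, Tgfbr1, Tgfbr2, Itgav and Skil the macrophage share was between 81.2 and 85.5%, close to the 81.4% these cells hold of all UMIs. Smad7 stood between, with 65.2% in macrophages.

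Mixed cells held 33.5% of the Itgb8 UMIs and 38.7% of the Lrrc32 UMIs. Of the 274 Itgb8 UMIs in mixed cells, 59.1% lay in cells with a Foxp3 UMI, although such cells were 14.9% of the mixed cells. For the 167 Lrrc32 UMIs in mixed cells that share was 27.5%. Cells with a Cd3 UMI were 80.5% of the mixed cells. They held 90.1% of the Itgb8 UMIs of mixed cells but 49.1% of the Lrrc32 UMIs. Across the Treg, other T, mixed, ungated and macrophage classes, cells with a Foxp3 UMI were 4.28% of the cells. They held 54.7% of the Itgb8 UMIs, 30.9% of the Lrrc32 UMIs and 6.89% of the Itgav UMIs. For the other members the share ran from 3.86% for Tgfbr1 to 7.98% for Smad7. All Treg-gated cells hold Foxp3 by definition, so part of each share was fixed by the gate. Mixed cells are also deeper, so the part of depth in these shares was not tested.

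**Figure D2:**
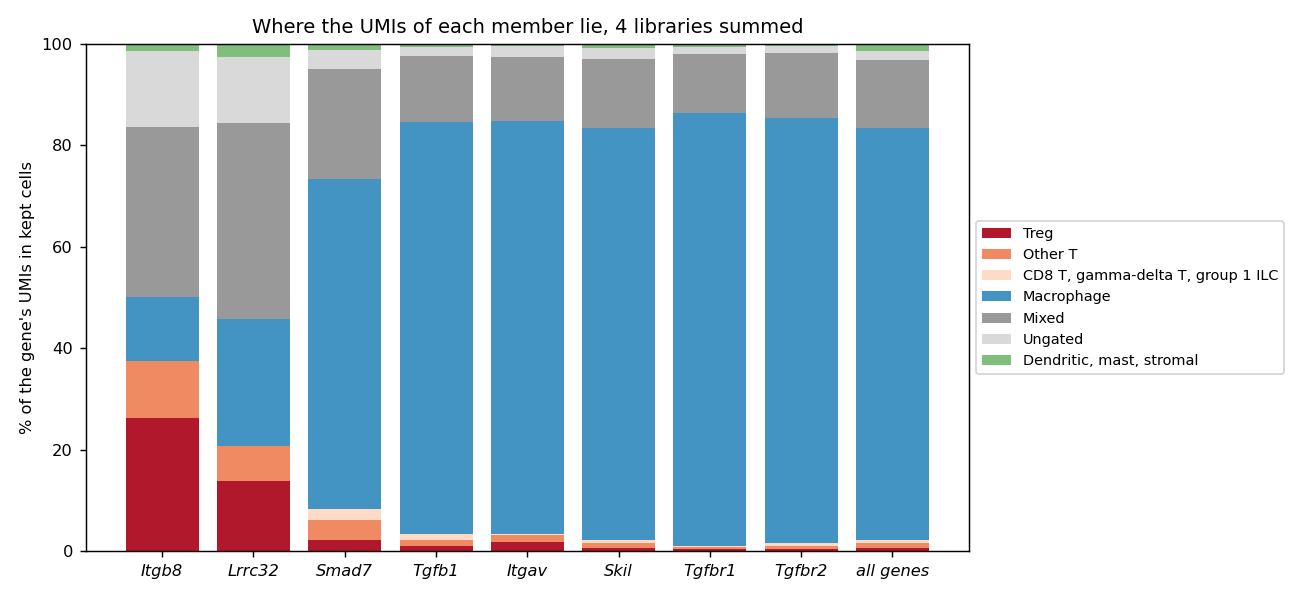
Percent of each member's UMIs (y axis, 0 to 100%) that lie in each class of kept cells, with 4 libraries summed and all genes as the last bar. Treg and other T cells hold 37.4% of Itgb8 and 20.6% of Lrrc32. Macrophages hold 85.5% of Tgfbr1 and 83.9% of Tgfbr2, beside 81.4% of all UMIs.

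Tgfb1, the ligand gene (chr7:25687002-25705077, plus strand), was found in each of the 6 classes tested, and was at 0 only in the day 7 dendritic gate. Its macrophage sums were even, at 175, 183, 193 and 195 CPM in PBS and on days 1, 3 and 7, a mean of 186 ± 9.31 CPM (SD, n = 4). Group 1 innate lymphoid cells had the highest mean, with 321, 422, 378 and 429 CPM in the same order of libraries, followed by gamma-delta T cells at 357 ± 48.3 CPM in 3 libraries. Treg sums held 264, 274, 313 and 227 CPM, and other T cells averaged 263 ± 45.6 CPM. CD8 T cells, with 102, 181 and 83.4 CPM on days 1, 3 and 7, were the lowest of the lymphoid classes, and their sums did not overlap those of any other lymphoid class with 10 cells. The 9 gamma-delta T cells of day 7, with 3 UMIs and 141 CPM, lay inside their range. In the order of means, group 1 innate lymphoid and gamma-delta T cells overlapped, as did gamma-delta T and other T cells, Treg and other T cells, and macrophages and CD8 T cells. Every macrophage sum lay below every Treg and other T cell sum.

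The tests did not carry all of that order. Group 1 innate lymphoid cells exceeded the other lymphoid classes by 0.89 on the log2 scale (SE 0.30, adjusted p 0.0764 by edgeR), and CD8 T cells differed from the others by -1.32 (SE 0.40, adjusted p 0.143). Neither passed at 0.05, but both did in 5 of 11 alternatives, among them DESeq2, with adjusted p of 0.0123 and 0.00710. Over the alternatives the adjusted p ran from 9.65e-04 to 0.331 for group 1 innate lymphoid cells and from 9.47e-04 to 0.905 for CD8 T cells. No member was called in the CD8 T, gamma-delta T or group 1 innate lymphoid contrasts, where 1.05%, 3.32% and 7.09% of all genes were. Split by direction, 0.955%, 2.58% and 4.51% of all genes were called higher in these 3 contrasts and 0.0955%, 0.74% and 2.58% lower. At an unadjusted p under 0.05, Tgfb1 and Itgav passed in the CD8 T and group 1 innate lymphoid contrasts and Itgav in the gamma-delta T contrast.

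Tgfbr1, the signalling chain of the receptor (chr4:47353222-47414931, plus strand), had its highest mean in macrophages among the 6 classes tested. Mast cells, outside the fit, held 16.2, 88.5 and 165 CPM in PBS and on days 1 and 3, from 1, 18 and 7 UMIs. Its macrophage sums were 80.9, 91.2, 81.6 and 62.3 CPM in PBS and on days 1, 3 and 7. Treg averaged 36.6 ± 20.3 CPM, group 1 innate lymphoid cells 33.2 ± 12.6 CPM and gamma-delta T cells 15.3 ± 18.1 CPM (SD, n = 4, 4 and 3), and CD8 T cells held 20.5, 11.7 and 27.8 CPM on days 1, 3 and 7. Every macrophage sum lay above every sum of these 4 lymphoid classes. Other T cells, outside the fit, averaged 42.0 CPM. Their day 7 level of 70.1 CPM, from 7 UMIs, lay above the macrophage sum of that day. Macrophages exceeded the lymphoid classes by 1.64 on the log2 scale (SE 0.26, adjusted p 1.20e-05 by edgeR). Between Treg and the other lymphoid classes the difference of 0.68 (SE 0.38) did not pass, with an adjusted p of 0.264.

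Tgfbr2, the ligand-binding chain (chr9:116084293-116175360, minus strand), was spread more evenly. Treg sums held 54.3, 46.0, 57.5 and 51.7 CPM and macrophages 85.0, 86.7, 58.2 and 75.0 CPM in PBS and on days 1, 3 and 7. Group 1 innate lymphoid cells ranged from 36.2 to 184 CPM, on 3 to 20 UMIs a library, and covered both. Macrophages differed from the lymphoid classes by 0.31 (SE 0.28) and Treg from macrophages by -0.69 (SE 0.36), neither past the test (adjusted p 0.389 and 0.131 by edgeR).

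Smad7, the inhibitor that blocks the receptor (chr18:75367529-75395935, plus strand), separated lymphoid cells from macrophages and dendritic cells. Mast cells, outside the fit, averaged 122 CPM, from 97.0 to 165 CPM in 3 libraries. Macrophages held 62.4, 90.7, 63.0 and 54.6 CPM in PBS and on days 1, 3 and 7, and dendritic cells 28.8, 118, 87.5 and 31.1 CPM. Treg sums held 295, 312, 378 and 165 CPM, and the means of the lymphoid gates lay between 287 and 359 CPM. No lymphoid sum reached down to the range of macrophages and dendritic cells. Macrophages were lower than the lymphoid classes, with a log2 difference of -2.16 (SE 0.24, adjusted p 8.42e-08 by edgeR). Within the lymphoid classes no contrast of Smad7 passed, and the largest difference was -0.33 (SE 0.24, adjusted p 0.420) in Treg.

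Skil, which encodes SnoN, a nuclear repressor of SMAD targets (chr3:31095058-31122577, plus strand), had class means between 181 and 302 CPM in lymphoid gates, 249 ± 73.2 CPM in macrophages and 158 ± 42.6 CPM in dendritic cells (SD, n = 4 for the myeloid gates). Mast and stromal cells, outside the fit, averaged 32.9 and 110 CPM. No class contrast of Skil passed the test, with adjusted p between 0.107 and 0.768.

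Macrophages against the lymphoid classes gave 2 members higher (Tgfbr1 and Itgav, by 0.97, SE 0.23, adjusted p 0.00123) and 1 lower (Smad7) of 7 tested, where 48.7% of all genes were called, 26.5% higher and 22.2% lower. Itgb8 was not called there, at a log2 difference of 1.87 with an SE of 3.83; 3 of the 4 lymphoid classes averaged into that contrast hold no UMI of it. Dendritic-gated cells, picked by Fscn1, Ccr7 and Ccl22, were lower than macrophages in 4 of 7 members and higher in none. Of all genes, 39.5% were called in that contrast, 20% higher and 19.5% lower. In DESeq2 the Itgb8 difference between macrophages and lymphoid cells had the opposite sign.

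The 4 members lower in dendritic cells were Tgfb1 at -1.38 (SE 0.36, adjusted p 0.00354), Tgfbr1 at -2.12 (SE 0.35, adjusted p 2.94e-05), Tgfbr2 at -2.15 (SE 0.46, adjusted p 6.01e-04) and Itgav at -2.06 (SE 0.32, adjusted p 1.24e-05). Without day 7, whose dendritic gate lacked the check markers, they stood at -0.95, -2.11, -2.35 and -2.01, and all passed with adjusted p between 2.08e-06 and 5.48e-04.

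Of a list of 41 other genes of the pathway, 18 passed the count filter. In macrophages against lymphoid cells 8 of them were higher and 2 lower, beside the 26.5% and 22.2% of all genes, with a list median of 0.57 on the log2 scale beside 0.04 over all genes. The highest were Tgfbi, a secreted matrix protein named for its induction by TGF-beta, at 3.85 (SE 0.20) and Dab2, an endocytic adaptor, at 3.77 (SE 0.22). The lowest called were Itgb3, another partner of the alpha v chain, at -3.30 (SE 0.39) and the AP-1 subunit gene Junb at -0.60 (SE 0.17), all with adjusted p of 0.00506 or less by edgeR. Itgae lay near Itgb3 but could not be estimated there. Free transcripts of macrophages can reach lymphoid droplets: the 10 macrophage markers made up 3.40 to 5.04% of the UMIs of macrophage sums, against 0.238 to 0.835% in lymphoid sums; their part in these differences was not tested.

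In Treg against the other lymphoid classes, 1 of the 18 pathway genes was higher and 2 were lower, beside 9.33% and 7.28% of all genes, with a median of -0.08 beside 0.09 over all genes. Itgae, which encodes CD103, the alpha chain of an epithelium-binding integrin, was higher by 5.89 (SE 0.92, adjusted p 1.82e-04 by edgeR). It had 498 UMIs over all fitted sums. Whether it passed the count filter through the Treg sums alone was not tested, so these values are not given as support. Nrros, another anchor of latent TGF-beta, followed at 0.64 without a call (adjusted p 0.491). Itgb1, the beta 1 integrin chain, was lower at -1.83 (SE 0.27, adjusted p 3.79e-05) and Junb at -0.54 (SE 0.18, adjusted p 0.0383), and Id3 stood at -1.24 without a call (adjusted p 0.254).

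In gamma-delta T cells 2 of the 18 pathway genes were higher and none lower, beside 2.58% and 0.74% of all genes. The protease gene Furin, whose product cleaves the TGF-beta precursor, was higher by 2.06 (SE 0.28, adjusted p 6.63e-05 by edgeR) and Junb by 0.82 (SE 0.19, adjusted p 0.0134). Itgae at 3.97, Id3 at -0.69 and Thbs1 at -0.80 did not pass. Group 1 innate lymphoid cells, where 4.51% of all genes were higher and 2.58% lower, had 1 of 18 higher, Itgb1 at 1.71 (SE 0.24), and 2 lower, Furin at -1.22 (SE 0.31) and Itgae (adjusted p 0.00870), whose fitted fold (SE 2.66) is too imprecise to give. The limit on Itgae stated for Treg holds for this call too. Pmepa1 at 0.64 did not pass there. CD8 T cells had none called by edgeR, with Itgae at 2.12, Id3 at 1.38, Furin at -0.59 and Itgb3 at -1.05 at the ends of the list.

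In dendritic cells against macrophages 2 of the 18 were higher and 8 lower, beside 20% and 19.5% of all genes, with a list median of -0.98 beside 0.03 over all genes. Smad4, the shared SMAD partner, was highest at 1.37 (SE 0.22), followed by Id2 at 1.11, which did not pass (adjusted p 0.0537 by edgeR), and Tgfbi was the lowest called, at -3.76 (SE 0.30). In Treg against macrophages, where 21.9% of all genes were higher and 22.3% lower, 2 were higher, Itgae at 7.60 (SE 0.53) and Itgb3 at 3.37 (SE 0.42), and 10 lower, led by Dab2 at -4.02 (SE 0.32) and Mmp14, a membrane protease, at -3.73 (SE 0.44). Itgae carries the same limit there as among the lymphoid classes.

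After cisplatin, comparisons rest on 1 library per day and carry no test. A gene counts as past the fold used here when its CPM differs from PBS by 1.5-fold or more, among genes with at least 20 UMIs, and brackets give the exact 95% interval of the ratio for counting error. Differences below are log2 ratios of the cisplatin library over PBS. The 3 comparisons share the PBS library.

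In macrophage-gated cells Skil was higher at each later time. It stood at 168 CPM in PBS and at 212, 284 and 333 CPM on days 1, 3 and 7. The ratios were 0.34 (0.30 to 0.37), 0.75 (0.71 to 0.80) and 0.98 (0.93 to 1.04), past 1.5-fold on days 3 and 7. The order held under each of 7 alternatives, with day 7 between 0.87 and 1.06.

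Itgav moved the other way by day 7. It stood at 152 CPM in PBS and at 170, 132 and 87.2 CPM on days 1, 3 and 7, so that only the day 7 ratio, -0.81 (-0.90 to -0.71), was past 1.5-fold. Smad7 was highest on day 1, with 90.7 CPM against 62.4 CPM in PBS, a ratio of 0.54 (0.48 to 0.60) that stays within 1.5-fold, and stood at 63.0 and 54.6 CPM on days 3 and 7.

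Tgfbr2 was lowest on day 3, with 58.2 CPM against 85.0 CPM in PBS, a ratio of -0.55 (-0.63 to -0.46) just inside 1.5-fold. Tgfbr1 was lowest on day 7, with 62.3 CPM against 80.9 CPM, a ratio of -0.38 (-0.49 to -0.27). Tgfb1 stayed within 0.16 of PBS on every day. Among members with 20 UMIs, 2, 2 and 1 were higher past the fold on days 1, 3 and 7 and 0, 0 and 2 were lower, where 13.6%, 16.6% and 14.6% of all genes were higher and 6.19%, 18.8% and 18.9% lower.

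Besides Skil and, on day 7, Itgav, the members past the fold were rare transcripts. Lrrc32 was higher on day 1 by 2.79 (1.78 to 3.98), from 68 UMIs on day 1 and 9 in PBS, and on day 3 by 2.80 (1.68 to 4.06), from 30 UMIs. Itgb8 was higher on day 1 by 1.70 (0.97 to 2.49), from 71 UMIs on day 1 and 20 in PBS, and on day 7 it had 3 UMIs, a ratio of -0.60 (-3.00 to 1.15) that came within 1.5-fold under TMM and RLE scaling. On day 1, 29.1% of the 55 macrophage-gated cells with an Itgb8 UMI also held a Cd3 UMI, against 13.4% of those without, and 14 of the 55 held Foxp3. For Lrrc32 on day 1 the Cd3 share was 17.0% of 53 cells. The part of T cell RNA in these ratios was not tested.

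**Figure D3:**
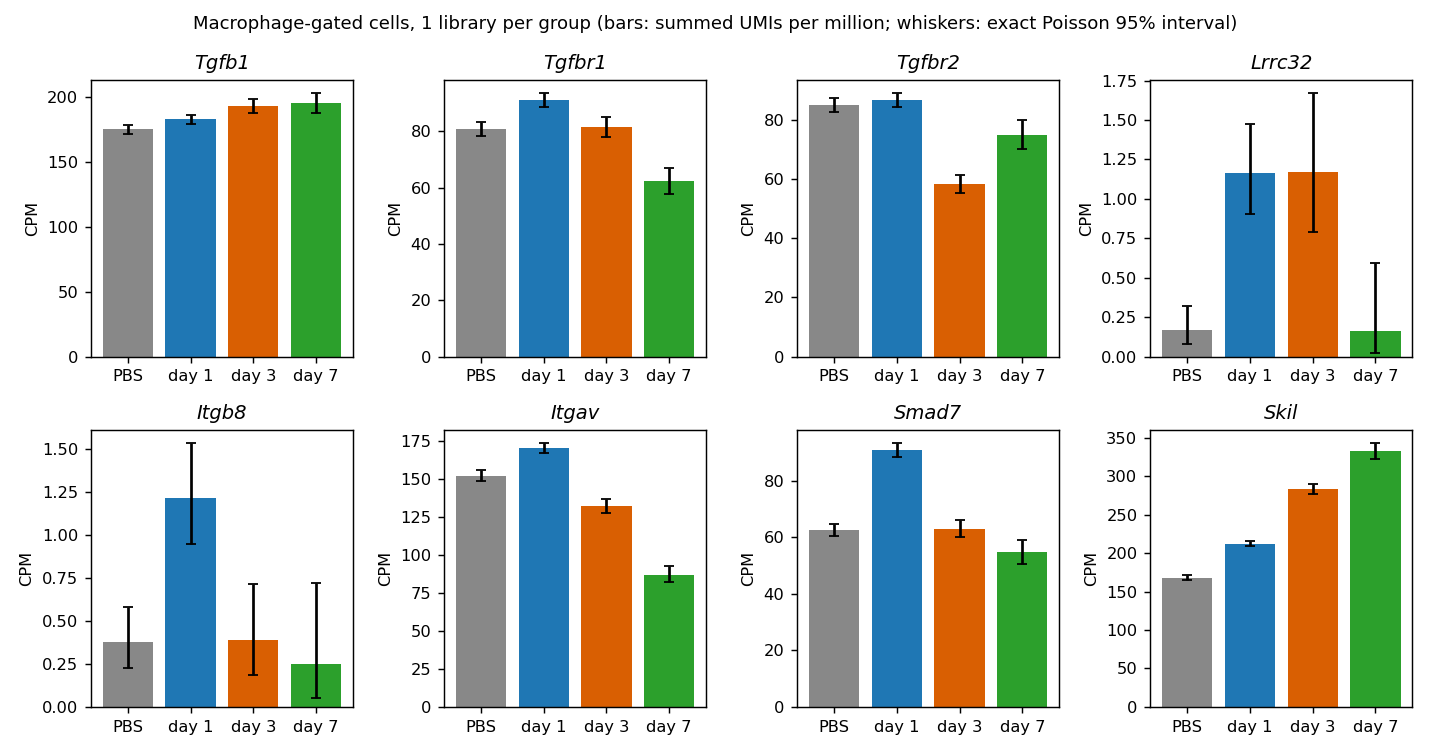
Level of each member in macrophage-gated cells (bars, CPM, y axes from 0) in PBS and on days 1, 3 and 7, with exact Poisson 95% intervals that cover counting error. Skil climbs over the 4 libraries to 333 CPM on day 7, Itgav is lowest on day 7 at 87.2 CPM, and the Lrrc32 and Itgb8 panels span less than 2 CPM.

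The make-up of the macrophage gate shifted over the same libraries. Cells with Cx3cr1 and Fcrls as their only subset markers were 56.7, 41.2, 17.2 and 57.9% of macrophages in PBS and on days 1, 3 and 7, and cells with Ly6c2 and Plac8 were 0.232, 0.940, 17.8 and 1.22%. Members were therefore also read within 6 groups: the Cx3cr1 Fcrls, Cd163 Folr2, Ly6c2 Plac8 and Arg1 cells, those passing several of these gates and those passing none.

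Skil was higher than in PBS in 6 of 6 groups on each day, and past 1.5-fold in 3, 6 and 6 of them on days 1, 3 and 7. In the Cx3cr1 Fcrls group it stood at 186, 251, 286 and 361 CPM in PBS and on days 1, 3 and 7, and in the Cd163 Folr2 group at 103, 143, 232 and 309 CPM. Itgav was lower than in PBS in 6 of 6 groups on day 7, and past 1.5-fold in 5. On day 7 the Ly6c2 Plac8, Cd163 Folr2 and Arg1 groups held 25, 23 and 11 cells, so their intervals are wide.

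For Tgfbr1 the groups differed from the whole gate in direction only, with PBS and day 3 intervals that overlapped in each group. Over all macrophages its day 3 and PBS levels, 81.6 and 80.9 CPM, gave a ratio of 0.01 (-0.06 to 0.09), while in 6 of 6 groups the day 3 level was above that of PBS. In the largest PBS group, the Cx3cr1 Fcrls cells, it was 102 CPM on day 3 (93.3 to 111) and 89.7 CPM in PBS (86.2 to 93.4). The PBS levels of the Ly6c2 Plac8 and Arg1 groups rest on 1 and 5 UMIs. The shares of the groups moved with this result, and their part in it was not tested.

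**Figure D4:**
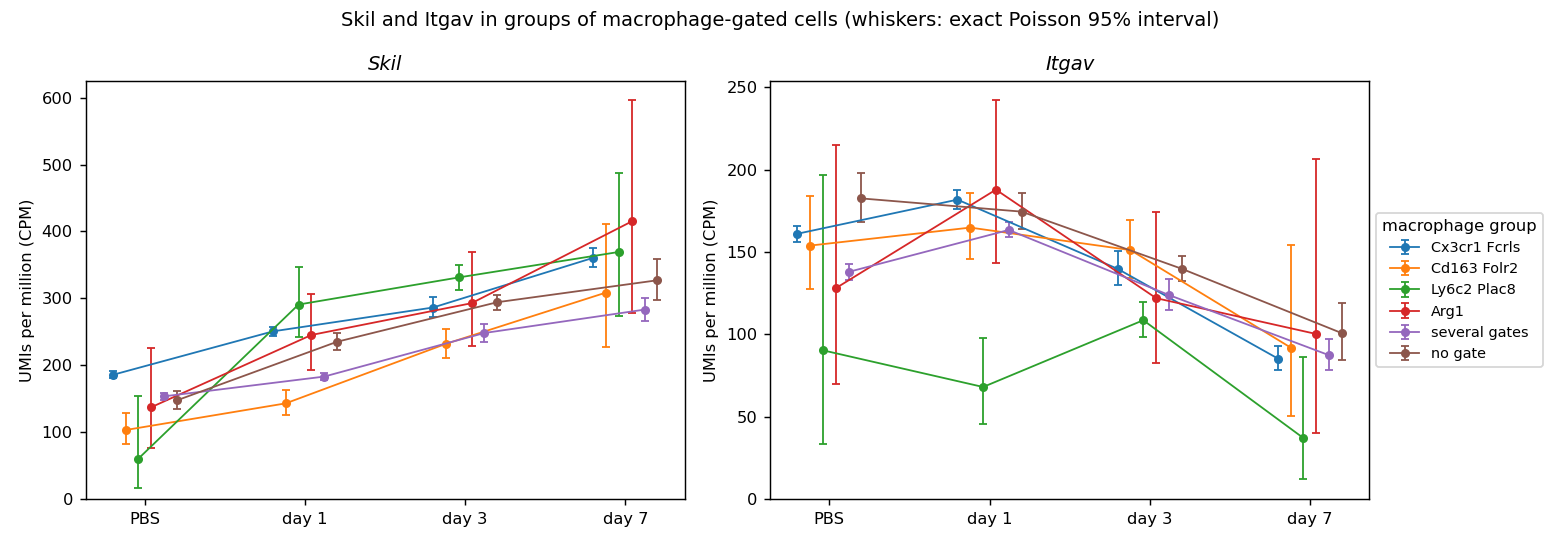
Skil (left) and Itgav (right) in CPM (y axes from 0) in PBS and on days 1, 3 and 7 for 6 groups of macrophage-gated cells with exact Poisson 95% intervals for counting error. On day 7 each of the 6 Skil points lies above its PBS point, and each of the 6 Itgav points lies below its PBS point.

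In the Treg gate the integrin pair was highest on day 1. Itgb8 stood at 242 CPM on day 1 and 109 CPM in PBS, a ratio of 1.16 (0.35 to 2.07), and at 180 CPM on day 3, a ratio of 0.73 (-0.11 to 1.67). On day 7 it was at 82.7 CPM, a ratio of -0.39 (-1.85 to 0.96). Itgav gave ratios of 0.65 (0.18 to 1.16), 0.50 (0.01 to 1.02) and -0.45 (-1.25 to 0.31) on days 1, 3 and 7. The day 1 intervals of both genes lie above 0 and those of day 7 include 0; they cover counting error and not the spread between animals.

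Lrrc32 in Treg cells gave 1.05 (-0.33 to 2.76) on day 3, and Tgfb1 stayed within 0.25 of PBS with intervals that include 0 on each day. Tgfbr1 gave 0.69 (-0.85 to 2.67) on day 1 and 0.83 (-0.73 to 2.82) on day 3, from 4 UMIs in PBS. Smad7 was lower on day 7, at 165 CPM against 295 CPM in PBS, a ratio of -0.83 (-1.78 to 0.04). Among members with 20 UMIs, 3 of 8, 3 of 8 and 1 of 5 were higher past the fold on days 1, 3 and 7, where 20.6%, 22.2% and 20.3% of all genes were. None, none and 1 were lower, where 11.4%, 10.3% and 23.7% of all genes were. The PBS and day 7 sums rest on 55 and 31 cells.

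**Figure D5:**
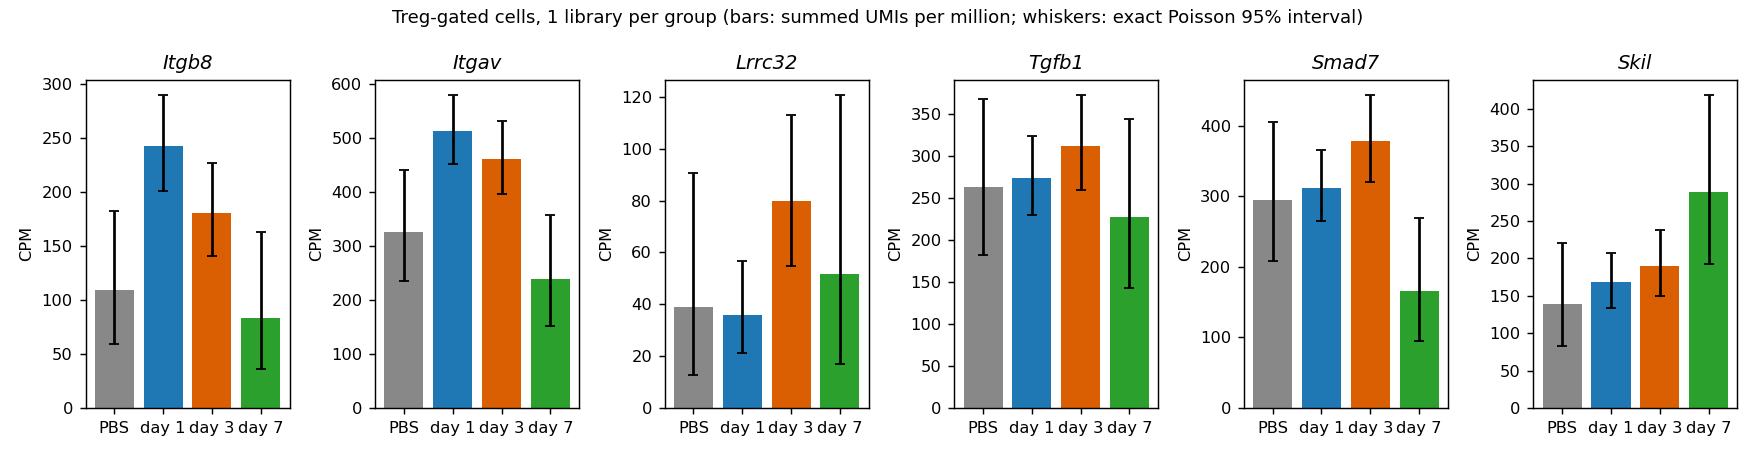
Level of 6 members in Treg-gated cells (bars, CPM, y axes from 0) in PBS and on days 1, 3 and 7, with exact Poisson 95% intervals for counting error. Itgb8 and Itgav peak on day 1 at 242 and 512 CPM, and Skil is highest on day 7 at 289 CPM.

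Skil was also highest on day 7 in Treg, other T and group 1 innate lymphoid cells. The dendritic gate held 201, 163, 169 and 99.6 CPM in PBS and on days 1, 3 and 7. Its day 7 value comes from the 10 cells that lacked the check markers, so it may not describe dendritic cells. Treg cells held 289 CPM on day 7 and 140 CPM in PBS, a ratio of 1.05 (0.15 to 1.99). Other T cells gave 1.32 (0.68 to 1.97), from 501 CPM on day 7 and 200 CPM in PBS, and group 1 innate lymphoid cells 1.66 (0.52 to 3.05), from 339 and 107 CPM. Each of these intervals lies above 0, on between 7 and 53 UMIs a sum.

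Smad7 differed in direction between lymphoid gates. In other T cells it was higher on day 1 by 1.01 (0.53 to 1.52) and on day 3 by 0.88 (0.42 to 1.38), with 459 and 420 CPM against 228 CPM in PBS. In group 1 innate lymphoid cells it was lower on day 3 by a ratio of -1.09 (-1.79 to -0.38) and on day 7 (interval -1.73 to -0.26), with 222 and 237 CPM against 474 CPM in PBS. With 1 library per day the difference between the gates was not tested. Itgav in other T cells was lower on day 7, at 120 CPM against 276 CPM in PBS, a ratio of -1.20 (-2.24 to -0.27).

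Over all kept cells Itgb8 and Lrrc32 gave the largest ratios of the 8 members on days 1 and 3. Itgb8 stood at 1.24, 6.84, 5.75 and 1.76 CPM in PBS and on days 1, 3 and 7, with ratios of 2.46 (2.10 to 2.84), 2.21 (1.81 to 2.62) and 0.50 (-0.19 to 1.15). Lrrc32 gave 2.49 (1.96 to 3.06), 2.72 (2.16 to 3.32) and 1.12 (0.24 to 1.96). Treg-gated cells were 0.681, 1.72, 2.38 and 1.12% of kept cells in the same order of libraries, and mixed cells 2.56, 12.5, 11.6 and 5.05%. More cells of a type and more RNA per cell cannot be told apart in these sums.

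Smad7 over all kept cells was higher on day 1 by 0.74 (0.68 to 0.79) and on day 3 by 0.63 (0.57 to 0.70), whereas the macrophage ratio of day 3 was 0.01. On day 1 the median of all genes was 0.14, and relative to TMM factors, which bring that median to -0.00, Smad7 was at 0.59. Of 8 members, 3, 4 and 2 were higher past the fold on days 1, 3 and 7 and 0, 0 and 1 lower, where 20.1%, 20.4% and 22.0% of all genes were higher and 4.65%, 17.6% and 14.3% lower. Those members included Skil, higher on days 3 and 7 by 0.73 and 0.92, and Itgav, lower on day 7 at -0.86. On day 1, 81.2% of all genes past the fold were higher by CPM, 67.6% with TMM and 70.0% with RLE factors.

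Among the 41 other pathway genes, 9, 13 and 9 were higher past the fold in macrophages on days 1, 3 and 7 and 1, 10 and 7 lower, of 39, 38 and 37 with 20 UMIs. Of all genes, 13.6%, 16.6% and 14.6% were higher on these days and 6.19%, 18.8% and 18.9% lower. Their medians were 0.29, 0.18 and 0.02, beside 0.09, -0.07 and -0.10 over all genes. The highest and lowest genes with 50 UMIs are named for each day. On day 1 these were Itgae, at 2.74 (2.08 to 3.48) from 154 UMIs on day 1 and 21 in PBS, and Thbs1 as the highest, and Pmepa1 and Ldlrad4, at -0.52 and -0.43, as the lowest. Macrophage-gated cells with a Cd3 UMI were 2.56% of the gate in PBS and 13.6% on day 1. The part of T cell RNA in the Itgae ratio was not tested. Thbs1, whose product thrombospondin can activate latent TGF-beta, stood at 102 CPM in PBS and at 287, 470 and 222 CPM on days 1, 3 and 7.

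On day 3 the highest were Thbs1, at 2.20 (2.15 to 2.25), and Tgif1, a repressor of SMAD targets, which stood at 64.2 CPM in PBS and at 114, 218 and 134 CPM on days 1, 3 and 7. The lowest on day 3 were Cdkn2b and Ltbp1, from 8 and 12 UMIs on day 3 and 73 and 87 in PBS. On day 7 the highest were Smad6, another inhibitory SMAD, at 1.71 (1.17 to 2.25) and Cyr61 at 1.16 (0.52 to 1.77). The lowest were Mmp9, a matrix protease, at -1.87 (-2.20 to -1.56) and Itgb1 at -0.85 (-0.92 to -0.78). Mmp9 was at 7.16 CPM on day 7 against 26.1 CPM in PBS, with ratios of 1.05 and 1.23 on days 1 and 3.

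Pmepa1, a TGF-beta-induced inhibitor of receptor SMADs, stood at 649 CPM in PBS and at 452, 199 and 629 CPM on days 1, 3 and 7, with a day 3 ratio of -1.71 (-1.75 to -1.66). Tgfbi stayed within 0.26 of PBS on each day. These values of Pmepa1 after day 1 and of Tgfbi were chosen for mention after they were seen.

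In Treg cells 5, 4 and 1 of the 16, 13 and 8 pathway genes with 20 UMIs were higher past the fold on days 1, 3 and 7, and 1, 3 and 2 were lower. The shares of all genes were 20.6%, 22.2% and 20.3% higher and 11.4%, 10.3% and 23.7% lower. Among genes with 50 UMIs, Dab2 at 1.87 (0.58 to 3.54) and Itgb1 at 1.39 (0.08 to 3.08) were highest on day 1, each from 5 UMIs in PBS, and Furin at 0.65 and Tgif1 at 0.53 on day 3. Among the same genes Itgae was the lowest on each day, at -0.46 (-0.97 to 0.07), -0.75 (-1.30 to -0.19) and -1.46 (-2.52 to -0.51) on days 1, 3 and 7. Dab2 and Itgb1 were both lower in Treg than in macrophages. The macrophage markers made up 0.522, 0.796, 0.337 and 0.508% of Treg UMIs in PBS and on days 1, 3 and 7. The part of free RNA in the Dab2 and Itgb1 ratios was not tested. Over all kept cells 10, 12 and 17 of 40 were higher and 0, 9 and 5 lower, beside 20.1%, 20.4% and 22.0% of all genes higher and 4.65%, 17.6% and 14.3% lower. There Cyr61 at 4.16 and Ltbp1 at 2.12 were the highest on day 7, where stromal-gated cells were 2.20% of kept cells against 0.297% in PBS.

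The genes closest to each member in pattern were found by Pearson's r of log2(CPM + 10) over 26 class sums, among 11021 genes. For Itgb8 they were Neb, Cd4 and Klrg1 (0.97, 0.97 and 0.96), and for Itgav they were Snx18, N4bp1 and Slc16a3 (0.88, 0.87 and 0.84). For Smad7 they included Ablim1 and Zcchc11 (0.95 and 0.93), and for Tgfb1 they were Ptk2b, Fgl2 and Ubald2 (0.90, 0.87 and 0.83). Tgfbr1 was closest to Metrnl, Cux1 and Klf7 (0.85, 0.84 and 0.83), Tgfbr2 to Inpp5d, Lgals8 and Slfn9 (0.70, 0.69 and 0.69) and Skil to BC024978, Daxx and Dusp1 (0.71, 0.71 and 0.69). Among member pairs Itgb8 and Itgav had the highest r, 0.78. The sums share libraries and depth, and Lrrc32 had too few UMIs to rank.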

How the data were processed

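The authors deposited raw UMI counts per gene and barcode from 4 libraries. Per the labels' protocols they are 10x 3' version 3 libraries, and per the submitters' processing notes Cell Ranger 3.1.0, Seurat 3.1.2 and the build mm10 were used; the role of Seurat is not given in the sources used here. Feature identifiers and names (other) were taken as deposited. The members and gene lists were chosen with earlier results of these data known.

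Barcodes were kept from 500 detected genes upward, if mitochondrial UMIs did not exceed 10%. Lineage gates were minimum UMI sums of markers. The minimum was 2 for T (Cd3d, Cd3e, Cd3g) and for group 1 innate lymphoid cells. It was 3 for macrophages and 5 for dendritic cells (Fscn1, Ccr7, Ccl22). Treg needed at least 1 Foxp3 UMI, with no Cd8 or gamma-delta UMI. No doublet caller was used; cells passing more than 1 gate were set aside.

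UMIs were summed per class and library, and 22 sums with at least 10 cells entered edgeR 4.0.16 (TMM, filterByExpr, quasi-likelihood test, class plus library, Benjamini-Hochberg over 4190 genes, threshold 0.05). The PBS CD8 T sum and the day 7 gamma-delta T sum had fewer cells. Libraries are blocks because classes come from the same suspension. The p-values therefore measure how far class differences vary from library to library, and the libraries also differ in treatment. Alternatives used DESeq2 1.42.0, other filters, gates and scalings. Scripts were tested on simulated data. Days were compared by CPM ratios with exact 95% binomial intervals. All 8 members were followed in every comparison, though not each is named in each. Of the pathway list, the 2 highest and 2 lowest with 50 UMIs were named in main comparisons. The contrast of Treg with macrophages, the Cd3 check in macrophage-gated cells and the daily values in lymphoid gates were added after seeing the data. One gene of the pattern ranking is not reported here.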

Additional observations from a re-analysis of the deposited data

How the results depend on the processing

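Counts of genes moved more than the members did. Without the low-count filter, genes called numbered 4409 (2040 with it) for macrophages against lymphoid cells, 3321 (1654) for dendritic cells against macrophages, 3722 (1853) for Treg against macrophages and 91 (44) for CD8 T cells. CD8 T calls also stood at 81 with DESeq2, 117 with gates raised by 1 UMI and 126 without the cells with the most UMIs, which gave 228 (139) for gamma-delta T and 461 (297) for group 1 innate lymphoid cells. Leaving out 1 library gave 328 to 939 calls for Treg (696 with all), 12 to 103 for CD8 T, 46 to 236 for gamma-delta T, 124 to 414 for group 1 innate lymphoid cells, 1319 to 2355 for macrophages, 941 to 2216 for dendritic cells and 1148 to 2316 for Treg against macrophages. The lowest counts came without day 1 or day 3 and the highest without day 7. Without the replicate block the counts were 464, 32, 106, 212, 1726, 1294 and 1496 in the order Treg, CD8 T, gamma-delta T, group 1 innate lymphoid cells, macrophages, dendritic cells and Treg against macrophages. Counting genes with at least 1 UMI raised those past 1.5-fold from PBS to 7673, 9613 and 9116 in all kept cells (3562, 5185 and 4833) and to 6651, 8215 and 8388 in macrophages (2686, 4587 and 4248) on days 1, 3 and 7.

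Of 532 member values in class contrasts, 508 kept direction and call, 23 passed the test newly and 1 reversed: Itgb8 in macrophages against lymphoid cells, 1.87 in edgeR, was -3.45 in DESeq2 (adjusted p 2.63e-07); 3 of the 4 lymphoid classes hold 0 UMIs, and the cause was not tested. Of 304 day ratios, 256 moved by less than their counting error and 48 moved by more. Calls by fold changed in 6: Itgb8 on day 7 in macrophages came within 1.5-fold with TMM and RLE (-0.52), and Smad7 on day 3 in all kept cells did so without the cells with the most UMIs (0.57), where Tgfbr2 on day 3 passed it in all kept cells (-0.64) and macrophages (-0.63). At most 5% mitochondrial UMIs brought Itgb8 past it on day 7 in all kept cells (0.60) and on day 3 in macrophages (-0.65, with the sign turned). The calls of Itgav in Treg and of Tgfbr1, Itgav and Smad7 in macrophages against lymphoid cells passed in every alternative that tested them. Depth limits Lrrc32 everywhere and Itgb8 in macrophages.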
